A study of Mus musculus with 19 samples.

Results

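The genes described here are Emb, Bsg and 4 genes of the SLC16 family, Slc16a1, Slc16a3, Slc16a6 and Slc16a7. The set of 6 was chosen by the clone minus parental difference of Emb, which was among the genes furthest below the parental line in knockout clones of mouse melanocytes, so the level of each gene in the clones against the parental line is given as a description and was not tested. Of the 6 genes, 5 were listed among the 13202 genes of the bulk table, and the same 5 were among the 10803 genes expressed highly enough to be tested. Slc16a3 was not analysed in the bulk libraries. All 6 were listed among the 19059 genes of 3 single-cell matrices and the 32285 genes of the remaining one.

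The series addressed how melanocytes change when they lose BAP1, a tumour suppressor that removes ubiquitin from histones, and how tumours at a skin or an eye site compare. Bulk RNA-seq covered 4 BAP1 knockout clones of Melan-a, an immortalised mouse melanocyte line, and the parental line with wild-type BAP1, with 2 cultures of each line and 10 libraries in all. The knockouts were made by CRISPR, each of the 4 is a single clone, and the series has no clone passed through editing with its BAP1 intact, so the effect of the knockout and of cloning cannot be told apart. Single-cell RNA-seq covered 4 matrices of dissociated tumours grown from Melan-a cells in syngeneic mice, with 1 matrix each for KO ocular, KO skin, WT ocular and WT skin. Genotype and site are known only from the names of the matrices, and which clone gave the KO tumours is not stated. No line, culture or mouse was treated with a drug. No animal age is given.

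Monocarboxylate transporters of the SLC16 family carry lactate, pyruvate and ketone bodies across the plasma membrane together with a proton. Several of them reach the cell surface only when bound to a glycoprotein of the immunoglobulin superfamily with a single membrane-spanning segment. Basigin, also known as CD147, is the usual partner of MCT1 (the product of Slc16a1) and MCT4 (Slc16a3), and embigin is the preferred partner of MCT2 (Slc16a7). MCT1 moves lactate in either direction, MCT2 has a high affinity and is linked to uptake, and MCT4 is the exporter of highly glycolytic cells. The product of Slc16a6 (MCT7) is known from zebrafish as an exporter of a ketone body from the liver.

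On mouse build GRCm38.p6, Emb lies at chr13:117220573-117274415, Bsg at chr10:79704358-79711979, Slc16a1 at chr3:104638664-104658462, Slc16a3 at chr11:120948484-120959000, Slc16a6 at chr11:109450855-109473598 and Slc16a7 at chr10:125219270-125389586. Promoter sequences from RefSeq on that build were at hand for 3 of the 6 genes, Emb, Slc16a1 and Slc16a3. The other members had none, so only these 3 are shown, and no link of sequence to level was tested. In the samples below, Emb was lower in clones and in melanocytic cells of KO tumours. Slc16a1 was not lower in 3 of the 4 clones and was highest in the KO ocular tumour. Slc16a3 was highest in neutrophils and monocytes of the tumours. Each window runs 5′ to 3′ from 250 bases before the transcription start and takes in the first 50 transcribed bases. All 3 are on the plus strand, at chr13:117220323-117220622, chr3:104638414-104638713 and chr11:120948817-120949116 in the order printed. The Emb and Slc16a1 windows begin before the gene spans given above. The whole Slc16a3 window lies inside its gene span, so its transcription start is an internal one. Capitals mark matches, on either strand, to 3 motifs: CACGTG and CATGTG, boxes read by MITF, MYC and related factors, and ACGTG, the core of the element read by hypoxia-inducible factors.
Emb: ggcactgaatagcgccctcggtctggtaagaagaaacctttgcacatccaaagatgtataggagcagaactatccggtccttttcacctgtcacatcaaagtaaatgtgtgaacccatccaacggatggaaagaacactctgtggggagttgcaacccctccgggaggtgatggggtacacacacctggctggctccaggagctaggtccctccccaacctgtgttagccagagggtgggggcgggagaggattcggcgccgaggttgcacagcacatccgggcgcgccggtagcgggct
Slc16a1: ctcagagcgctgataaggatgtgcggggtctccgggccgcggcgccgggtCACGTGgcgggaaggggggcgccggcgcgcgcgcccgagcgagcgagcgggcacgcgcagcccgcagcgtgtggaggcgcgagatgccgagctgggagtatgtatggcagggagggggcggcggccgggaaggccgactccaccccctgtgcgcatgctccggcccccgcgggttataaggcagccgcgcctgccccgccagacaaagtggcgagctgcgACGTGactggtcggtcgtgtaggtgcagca
Slc16a3: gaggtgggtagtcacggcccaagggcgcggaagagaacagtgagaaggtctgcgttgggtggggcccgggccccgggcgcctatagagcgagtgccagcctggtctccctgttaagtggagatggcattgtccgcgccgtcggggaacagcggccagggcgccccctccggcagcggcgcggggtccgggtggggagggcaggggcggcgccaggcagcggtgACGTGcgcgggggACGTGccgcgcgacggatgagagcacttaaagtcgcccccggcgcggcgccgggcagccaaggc
The Emb window held none of the 3 motifs. The Slc16a1 window held CACGTG at 200 bases before the start and ACGTG at 20 bases after it. CACGTG itself contains ACGTG on both strands, so the window counts 3 matches to ACGTG. The Slc16a3 window held ACGTG at 27 and at 14 bases before the start. Of 32851 mouse promoter windows of the same length, 7.15% held CACGTG, 14.2% held CATGTG, 19.6% held ACGTG and 8.21% held at least 2 matches to ACGTG. GC content was 57.7% for Emb, 73.7% for Slc16a1 and 73.3% for Slc16a3, with a median of 52.7% over all windows. A match is a description of the letters and not evidence of binding.

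Bulk depth was 30.8 to 46.8 M reads per library. Levels are given as normalised reads, the recovered read count of a gene divided by the size factor of its library. Bap1 had 753 and 655 normalised reads (clone 1), 1067 and 1124 (clone 2), 1193 and 1098 (clone 3) and 491 and 359 (clone 4), against 4450 and 4392 in the parental cultures. It was therefore lower in every clone culture than in either parental one, and passed in all 4 clones (limma, highest Benjamini-Hochberg adjusted p = 6.69e-06). All 11 melanocytic markers were listed, with a summed level of 1.59 to 2.20 M normalised reads in the clones, and no marker of T or NK, B, erythroid, lens or surface epithelial cells was listed. The 3 listed macrophage markers, Cd68, Csf1r and Mrc1, summed to 966 to 2514 normalised reads in the clones, against 1142 and 1183 in the parental cultures. The labels leave unsaid whether the paired cultures were separate from the start, so p-values measure the spread between these cultures, which may be technical.

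Emb, which codes for embigin, was the member furthest from the parental level. It had 1047 and 960 normalised reads (clone 1), 44.3 and 40.1 (clone 2), 33.5 and 31.2 (clone 3) and 79.2 and 73.1 (clone 4), against 1586 and 1591 in the parental cultures. All 8 clone cultures lay below both parental ones, and clone 1 stood apart from the other clones, with the 2 cultures of each line close together. As a share of the parental mean, the level was 63.1% in clone 1, 2.66% in clone 2, 2.03% in clone 3 and 4.79% in clone 4. That is 1.58-fold, 37.6-fold, 49.1-fold and 20.9-fold lower. In bulk samples, fewer cells with Emb and less Emb RNA per cell cannot be told apart.

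On the stabilised log2 scale, which flattens at low counts, the clone minus parental differences of Emb were -0.58, -3.25, -3.37 and -2.95 in clones 1 to 4, each with a standard error of 0.096. Ranked from the lowest difference upwards among the 10803 genes tested, Emb was at position 247 in clone 1, 6 in clone 2, 14 in clone 3 and 23 in clone 4. These ranks describe the contrast that chose the set. The 4 comparisons share the 2 parental cultures.

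The clones can be set against each other without the parental levels. The p-values still use a spread estimated over all 10 libraries, the parental ones included. The clone values of Emb entered the choice of the set, so its p-values among clones are not independent of that choice. Emb differed among the 4 clones (limma F test, Benjamini-Hochberg adjusted p = 1.53e-07). So did Bsg (adjusted p = 0.00304), Slc16a1 (0.0114), Slc16a6 (0.00401) and Slc16a7 (0.000238), so 5 of 5 members tested passed, where 44.5% of all genes tested did. Without culture 1 of clone 3 the adjusted p of Slc16a1 was 0.0575.

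For Emb the order of the clones was clone 3, clone 2, clone 4 and clone 1 from low to high. Clone 1 was above each of the others: the difference was -2.67 for clone 2 minus clone 1, -2.79 for clone 3 minus clone 1 and -2.37 for clone 4 minus clone 1 (limma, Benjamini-Hochberg adjusted p = 1.55e-07, 1.49e-07 and 1.99e-07). Of all genes tested, 11.5%, 29.4% and 29.6% passed in these 3 pairs. Clones 3 and 2, neighbours at the low end, did not differ beyond the spread between cultures (difference -0.11, standard error 0.096, limma adjusted p = 0.463). Clone 4 was 0.30 above clone 2 and 0.42 above clone 3 (limma adjusted p = 0.0463 and 0.0133, with 21.5% and 20.1% of all genes passing). Both calls were lost in some runs without 1 culture, where the differences ran from 0.28 to 0.33 and from 0.39 to 0.44. Clone 4 minus clone 2 also did not pass with no filter on low values (limma adjusted p = 0.0534). With the filter at 2 above the lowest value its limma adjusted p was 0.0508.

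**Figure D1:**
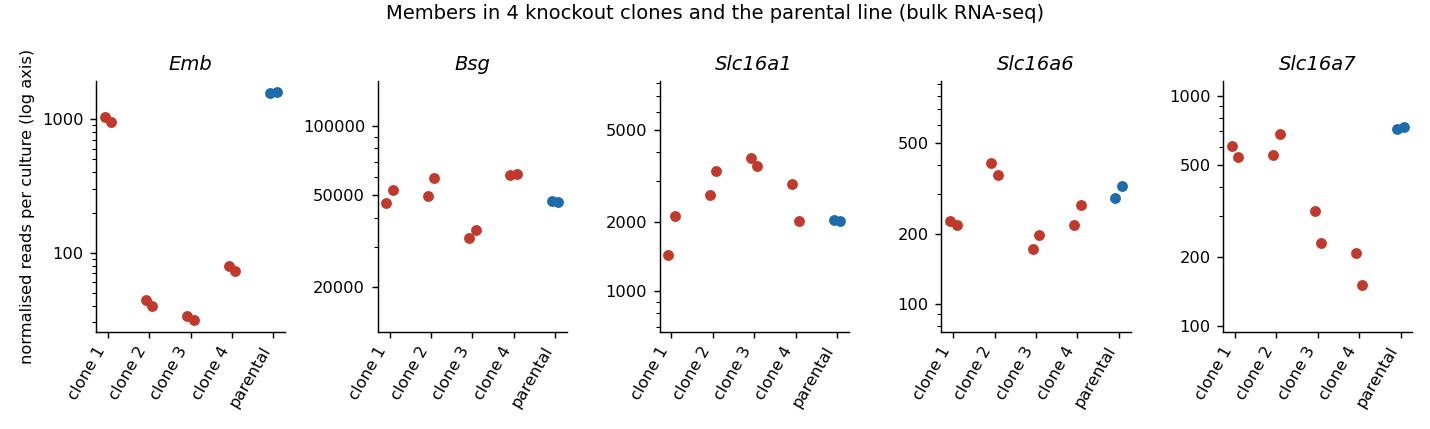
Normalised reads (log axis) of Emb, Bsg, Slc16a1, Slc16a6 and Slc16a7 in each bulk library, 1 point per culture and 2 cultures per line, with the clones left of the parental line. Emb lay between 31.2 and 79.2 in clones 2 to 4 and at 960 and 1047 in clone 1, against 1586 and 1591 in the parental cultures, while the other genes stayed nearer to the parental level.

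Bsg, the gene of basigin, was near its parental level in each clone. It had 46207 and 52930 normalised reads (clone 1), 49759 and 59736 (clone 2), 32620 and 35487 (clone 3) and 61242 and 61701 (clone 4), against 47415 and 46698 in the parental cultures. Clone 3 lay below the parental cultures, clone 4 and clone 2 lay above them, and clone 1 spanned them. The means were 105%, 116%, 72.4% and 131% of the parental mean in clones 1 to 4, and the log2 differences were 0.07, 0.21, -0.47 and 0.38 (standard error 0.13). Clone 3 differed from each other clone: the difference was -0.54 for clone 3 minus clone 1, -0.68 for clone 3 minus clone 2 and 0.85 for clone 4 minus clone 3 (limma, Benjamini-Hochberg adjusted p = 0.0132, 0.00795 and 0.00194). Without 1 culture of clone 3, or culture 2 of clone 1, the first of these no longer passed (adjusted p 0.053 to 0.11), and the second did not pass without either culture of clone 3. The remaining 3 pairs did not pass, and 15.8% of all genes passed between clones 3 and 2.

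Slc16a1, the gene of MCT1, was above its parental level in clones 2 and 3. It had 1434 and 2109 normalised reads (clone 1), 2607 and 3311 (clone 2), 3800 and 3496 (clone 3) and 2922 and 2006 (clone 4), against 2034 and 2008 in the parental cultures. Both cultures of clones 2 and 3 lay above both parental ones, while the cultures of clones 1 and 4 lay far apart and overlapped them. The means were 87.7%, 146%, 180% and 122% of the parental mean, and the log2 differences were -0.19, 0.50, 0.79 and 0.24 (standard error 0.19). Without their culture 1 the differences were 0.06 in clone 1 and -0.01 in clone 4. Clone 3 was 0.99 above clone 1 (limma, Benjamini-Hochberg adjusted p = 0.00444) and clone 2 was 0.70 above clone 1 (0.0444). The second of these rests on few cultures: leaving out 1 library gave adjusted p-values up to 0.257, and edgeR on the recovered reads gave 0.0538. The other 4 pairs did not pass with all libraries. Without each culture in turn, clone 4 minus clone 1 ran from 0.185 to 0.688 and clone 4 minus clone 3 from -0.80 to -0.30. Each of these 2 pairs passed in some of those runs.

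Slc16a7, the gene of MCT2, had levels below the parental ones that differed in size among the clones. It had 606 and 541 normalised reads (clone 1), 552 and 680 (clone 2), 317 and 229 (clone 3) and 207 and 150 (clone 4), against 717 and 731 in the parental cultures. All 8 clone cultures lay below both parental ones, with clones 3 and 4 lowest. The means were 79.2%, 85.0%, 37.7% and 24.6% of the parental mean, and the log2 differences were -0.27, -0.19, -1.03 and -1.40 (standard error 0.14). Clones 3 and 4 were each below clones 1 and 2: the differences were -0.77 and -1.13 against clone 1 and -0.84 and -1.21 against clone 2 (limma, highest Benjamini-Hochberg adjusted p = 0.0034). Without culture 2 of clone 3, the adjusted p of clone 3 minus clone 2 was 0.0524. Clones 2 and 1 (difference 0.08, limma adjusted p = 0.762) and clones 4 and 3 (-0.37, 0.0907) did not differ beyond the spread between cultures. Clone 2, with Emb at 2.66% of the parental level, thus kept Slc16a7 at 85.0%.

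Slc16a6, the gene of MCT7, stood lowest in clone 3 and highest in clone 2. It had 228 and 221 normalised reads (clone 1), 407 and 364 (clone 2), 173 and 199 (clone 3) and 220 and 270 (clone 4), against 289 and 324 in the parental cultures. Clone 2 lay above both parental cultures and the other 3 clones lay below them. The means were 73.3%, 126%, 60.6% and 80.01% of the parental mean. Clone 2 differed from each other clone: the difference was 0.51 for clone 2 minus clone 1 (limma, Benjamini-Hochberg adjusted p = 0.0143), -0.67 for clone 3 minus clone 2 (0.00321) and -0.44 for clone 4 minus clone 2 (0.0184). Leaving out culture 1 of clone 2 ended the first and the last of these calls (adjusted p = 0.0635 and 0.101), as did leaving out culture 1 of clone 1 for the first (0.0512) and of clone 4 for the last (0.0559). The pairs among clones 1, 3 and 4 did not pass.

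**Figure D2:**
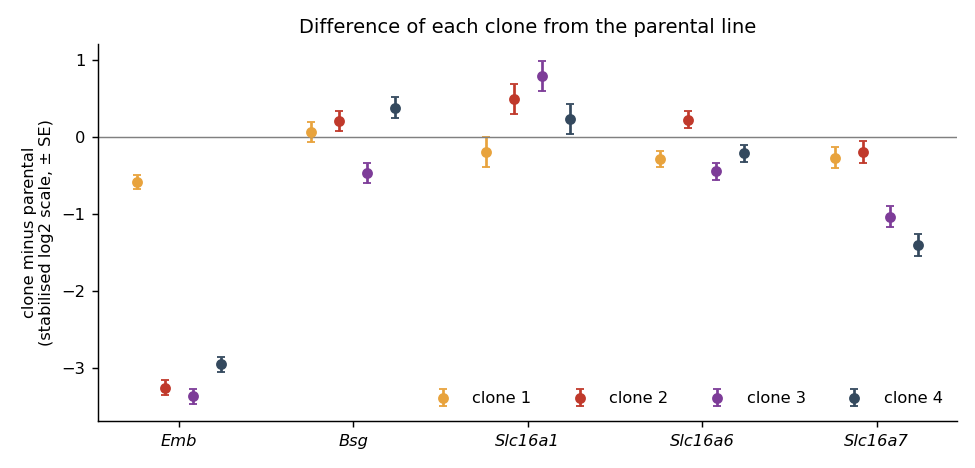
Clone minus parental difference on the stabilised log2 scale for the 5 members in the bulk table, 1 point per clone with its standard error, and 0 marking the parental line. Emb lies at -3.37 to -2.95 in clones 2 to 4 and at -0.58 in clone 1, Slc16a7 lies below 0 in all 4 clones, and Bsg, Slc16a1 and Slc16a6 lie on both sides of 0.

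Bsg and Slc16a7 share chromosome 10, whose 520 tested genes had a median difference of 0.28 in clone 2, against 0.03 over all genes. Relative to that median, Bsg in clone 2 was at -0.07 and Slc16a7 at -0.47. Emb on chromosome 13 was little moved, at -3.26 in clone 2.

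Of the members, Slc16a7 followed Emb most closely over the 10 libraries, with a Pearson correlation of 0.64, and Slc16a1 ran the other way at -0.77. Bsg (0.05) and Slc16a6 (0.06) did not follow it. The 5 genes of the whole table whose values were most like those of Emb were Dpysl3 (0.995), which codes for a cytosolic phosphoprotein of the growth cone, Ehd3 (0.993), of endosomal recycling, Tspan12 (0.992), a tetraspanin, Stk36 (0.991), a kinase, and Slc9a9 (0.989), an endosomal sodium and proton exchanger. Their differences in clones 1 to 4 were -0.34, -2.97, -3.19 and -2.47 for Dpysl3, -0.35, -2.83, -2.96 and -2.80 for Ehd3, and -0.92, -2.90, -3.06 and -2.82 for Tspan12. Stk36 moved little, between -0.15 and -0.55, and Slc9a9 lay between -0.45 and -1.42. These correlations are descriptions: the libraries are 5 lines of 2 cultures, and genes with a small value in clones 2 to 4 and a high one elsewhere score high whatever their size.

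The other genes of the pathway were read from lists. Of the 10 other SLC16 genes, 2 were listed and none was expressed highly enough to be tested. Slc16a4 had 12.4 to 32.8 normalised reads in the clones, against 34.3 and 38.7 in the parental cultures, and Slc16a8, the transporter of the retinal pigment epithelium, had 25.2 to 69.4 in the clones, against 38.1 and 32.6.

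Of 12 genes of pyruvate and lactate handling tested, 0 were higher and 1 lower in clone 1; the numbers were 3 and 4 (clone 2), 1 and 7 (clone 3), and 3 and 4 (clone 4) (limma, Benjamini-Hochberg adjusted p under 0.05). Over all genes tested, 3.5% passed in clone 1, 26.1% in clone 2, 39.8% in clone 3 and 36.5% in clone 4. By direction, 1.15% were higher and 2.35% lower (clone 1), 12% and 14.1% (clone 2), 19.9% and 20% (clone 3), and 19.3% and 17.2% (clone 4). The median difference of the list was -0.16, -0.15, -0.43 and -0.21 in clones 1 to 4, where the median over all genes tested was -0.02, 0.03, 0.01 and 0.04. Ldhb, the lactate dehydrogenase subunit that favours the step to pyruvate, fell in all 4 clones, with differences of -0.54, -1.28, -1.67 and -1.26 on the log2 scale (limma, highest adjusted p = 0.0325, in clone 1). Ldha, the other main subunit, did not pass in any clone, with differences of -0.19 to 0.06.

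Pcx, which makes oxaloacetate from pyruvate, fell in clones 2 to 4, with differences of -1.05, -1.45 and -1.29 (limma, highest adjusted p = 0.00567), and its difference in clone 1 was -0.59 (0.192). Pdk3, a kinase that holds back pyruvate dehydrogenase, fell in clones 2 to 4, with differences of -1.13, -0.93 and -1.05 (highest adjusted p = 0.000192), with -0.42 in clone 1 (0.0776). Ldhd, a mitochondrial dehydrogenase of D-lactate, rose in clones 2 to 4, by 0.52, 1.04 and 1.25 (highest adjusted p = 0.0244), with 0.31 in clone 1 (0.33). Its clone 2 call ended without culture 1 of clone 2 (difference 0.36, adjusted p = 0.143) or either parental culture (up to 0.145).

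Of 19 genes of hypoxia and glycolysis tested, 0 were higher and 1 lower in clone 1; the numbers were 4 and 2 (clone 2), 4 and 2 (clone 3), and 10 and 2 (clone 4), with list medians of -0.01, 0.30, 0.10 and 0.56. The shares over all genes tested were 3.5%, 26.1%, 39.8% and 36.5% in clones 1 to 4. Ndrg1, a hypoxia-inducible differentiation gene, fell in all 4 clones, with differences of -0.50, -1.31, -3.58 and -2.98 (limma, highest adjusted p = 0.044, in clone 1). Slc2a1, the glucose transporter GLUT1, rose in clones 2 to 4, by 0.58, 0.74 and 0.77 (highest adjusted p = 0.00184). Pgam1, a glycolytic mutase, rose in the same 3 clones, by 0.52, 0.65 and 0.72 (highest adjusted p = 0.0169). Hk1, a hexokinase, rose in clone 2 by 1.08 and in clone 4 by 1.29 (adjusted p = 0.00607 and 0.00159). In clone 2 the call on Pgam1 ended without culture 2 of clone 2 (difference 0.36, adjusted p = 0.131) or either parental culture (up to 0.109), and that on Hk1 without culture 2 of clone 2 (0.0531). In clone 1 the adjusted p of Ndrg1 reached 0.372 over the alternatives and was 0.0763 with edgeR on the recovered reads, that of Ldhb reached 0.316, and no gene of any list passed in clone 1 by limma without culture 2 of clone 1, either culture of clone 3 or either parental culture.

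Of 13 relatives and partners of embigin and basigin tested, 0 were higher and 1 lower in clone 1; the numbers were 2 and 2 (clone 2), 2 and 1 (clone 3), and 3 and 3 (clone 4). The shares over all genes tested were 3.5%, 26.1%, 39.8% and 36.5%, and the list medians were -0.02, 0.06, 0.11 and 0.11. Slc2a1, given above, is also in this list and among the genes higher in clones 2 to 4. Slc3a2, the heavy chain CD98 of amino acid transporters, fell in clones 2 to 4, with differences of -0.61, -0.41 and -0.41 (limma, highest adjusted p = 0.041). These 3 calls ended without either parental culture (adjusted p up to 0.186), those in clones 3 and 4 also without either culture of clone 3 (up to 0.206), that in clone 2 without its culture 1 (0.0583) and that in clone 4 without its culture 2 (0.145). Slc7a11, the cystine transporter that pairs with it, rose in clone 3 by 1.27 and in clone 4 by 0.95 (adjusted p = 0.000609 and 0.00358). Ppia, the cyclophilin that binds basigin, rose by 0.43 in clone 2 and by 0.43 in clone 4 (adjusted p = 0.0295 and 0.022). Both calls ended without either parental culture (adjusted p up to 0.173), that in clone 2 also without its culture 2 (0.182) or either culture of clone 3, and that in clone 4 without its culture 1 (0.0775) or after quantile normalization, where the difference was 0.21 (0.0627). Nptn, the neuroplastin gene and nearest relative of the pair, fell by 0.38 in clone 4 (adjusted p = 0.0379) and did not pass in clones 1 to 3, and is named although the naming rule did not pick it. That call ended without culture 2 of clone 4 (adjusted p = 0.154), either parental culture (up to 0.176) or either culture of clone 3.

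Of 6 genes of proton and bicarbonate transport tested, 1 rose in clone 2, 3 rose in clone 3, and in clone 4 1 rose and 1 fell. Over all genes tested, 26.1%, 39.8% and 36.5% passed in clones 2 to 4. The list medians were -0.08, 0.17, 0.43 and 0.03 in clones 1 to 4. Car14, a membrane carbonic anhydrase, rose in clones 2 to 4, by 0.75, 0.61 and 1.28 (limma, highest adjusted p = 0.00858). Slc4a4, a sodium bicarbonate cotransporter, rose by 1.03 in clone 3 and fell by 0.57 in clone 4 (adjusted p = 0.000264 and 0.0081), and the anion exchanger gene Slc4a2 rose by 0.85 in clone 3 (0.0022). The clone 3 call on Car14 ended without culture 2 of clone 3 (adjusted p = 0.0739) or either parental culture (up to 0.0598). The clone 4 call on Slc4a4 ended after quantile normalization (difference -0.34, adjusted p = 0.0843) and without either parental culture (up to 0.0562).

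**Figure D3:**
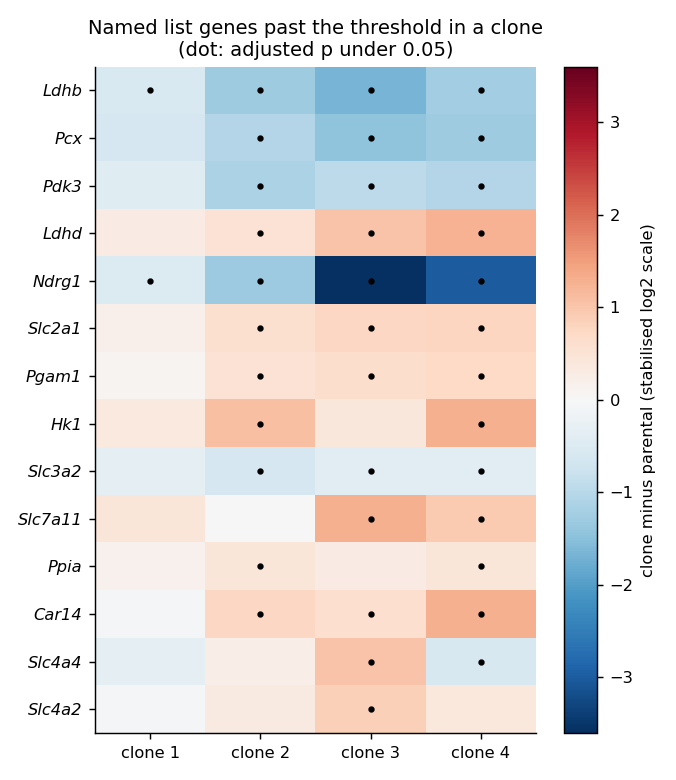
Clone minus parental difference on the stabilised log2 scale (colour) for the named genes of the lists that passed in at least 1 clone, 1 row per gene and 1 column per clone, with a dot where the limma adjusted p was under 0.05. Ldhb and Ndrg1 carry a dot in all 4 clones, and Slc2a1, Pgam1, Ldhd, Pcx, Pdk3, Slc3a2 and Car14 carry one in clones 2 to 4.

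The tumours were read from 3 matrices of 1 assay and 1 of another. After filtering, the matrix labelled KO ocular held 9149 cells, KO skin 13087 and WT skin 11591, and WT ocular held 26128. The 3 matrices of 1 assay shared no whole barcode but 1793 to 2417 barcodes in their first 16 bases, the part that names the droplet. Clusters named melanocytic made up 5010 cells (54.8%) of KO ocular, 7442 (56.9%) of KO skin and 5401 (46.6%) of WT skin, in 8 clusters each. The naming rested on the level of melanocyte markers and on further limits given below, and not on the leading gene being a marker. In these matrices 981, 2677 and 3752 cells stayed unnamed. With 1 matrix per label no difference between matrices has a replicate check, and the intervals below cover counting error only.

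Bap1 did not separate the labels in these data. Levels are given as counts-per-million (CPM), the UMIs of a gene over all UMIs of the class. In melanocytic cells Bap1 had 33.1 CPM (95% Poisson interval 31.9 to 34.4) in KO ocular and 48.7 (46.9 to 50.6) in KO skin, against 41.6 (39.9 to 43.3) in WT skin. The matrix labelled KO skin was thus above the one labelled WT skin. Where the probes lie relative to the edits is not stated in the labels, so a genotype cannot be read from these values, and each matrix is called by its label.

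Emb in melanocytic cells was low in both matrices labelled KO. It had 1.73 CPM (1.45 to 2.05) in KO ocular, 2.13 (1.76 to 2.54) in KO skin and 81.9 (79.5 to 84.3) in WT skin. With classes set by marker level alone, a choice made after seeing the data, it was 1.73 in KO ocular, 4.00 in KO skin and 84.2 in WT skin, so no exact fold is given. There is 1 matrix behind each value. No melanocytic cluster overlapped between the labels. The clusters ran from 0.861 to 3.20 in KO ocular and from 0 to 2.92 in KO skin, against 44.8 to 111 in WT skin. Clusters of 1 matrix are not replicates. What share of all genes had clusters apart in this way was not counted, for Emb or for the members below. Thinned to 1000 UMIs per cell, with 324, 93 and 68 shallower cells left out, 0.207% of melanocytic cells in KO ocular, 0.258% in KO skin and 6.33% in WT skin had a UMI of Emb, where median depths before thinning were 9210, 4196.5 and 6113 UMIs. Without thinning the shares were 2.06%, 1.51% and 38.1%.

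Free RNA bears on these levels. Had all UMIs of immune markers in melanocytic cells come from free RNA carrying Emb as immune cells do, free RNA would have given up to 3.56 CPM in KO ocular, 2.54 in KO skin and 7.69 in WT skin. The measured level was below that ceiling in both KO matrices and above it in WT skin, so Emb was not detectable in melanocytic cells of KO ocular and KO skin beyond what free RNA allows. In endothelial cells, given for their background, the thinned share with Emb was 0.535% in KO ocular, 0.203% in KO skin and 3.45% in WT skin, with median depths of 7808, 2295 and 4237 UMIs. In WT skin, free RNA of melanocytic cells would give endothelial cells up to 50.4 of their 60.6 CPM for Emb.

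Emb was found in monocytes, neutrophils, T or NK cells and macrophages of all 3 matrices. Monocytes had 872 CPM in KO ocular, 396 in KO skin and 637 in WT skin, and neutrophils had 628, 160 and 510. T or NK cells had 869, 114 and 283. Their cluster was led by Trac in KO ocular and WT skin and by Gzmc in KO skin, so its cells may differ. Macrophages had 352, 167 and 123. Melanocytic cells of both KO matrices lay far below each of these classes, whereas in WT skin macrophages lay close above melanocytic cells. B cells stood apart from these classes, with 6.24 in KO ocular, 8.75 in KO skin and 75.4 in WT skin, where melanocytic free RNA would give up to 47.4. Surface epithelial cells of WT skin had 745 CPM from 91 cells, where immune free RNA would give up to 10.05 and melanocytic free RNA up to 32.5. Their cluster was led by Fa2h, Sdr16c6 and Tchh, with 1 class marker, Krt14, among its 10 leading genes. The class name does not settle which epithelial cells these were.

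**Figure D4:**
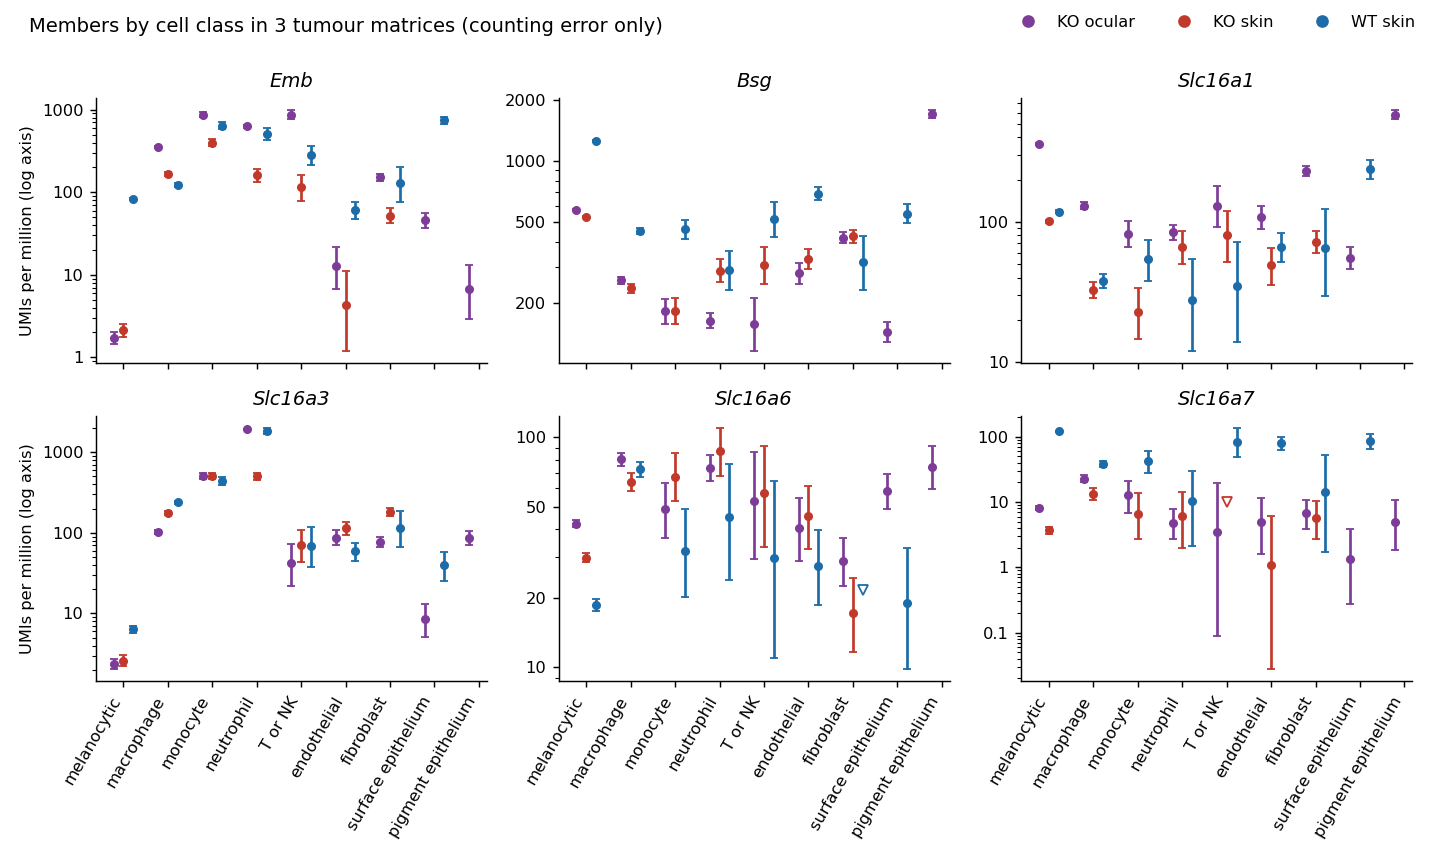
CPM (log axis) of each member in the cell classes of the matrices labelled KO ocular, KO skin and WT skin, with 95% Poisson intervals that cover counting error only. Open triangles stand for a class with 0 UMIs, drawn at the floor of 3 counts. Emb in melanocytic cells lies at 1.73 and 2.13 in the KO matrices and at 81.9 in WT skin, and Slc16a3 is highest in neutrophils and monocytes of all 3 matrices.

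Slc16a7 in melanocytic cells was also low in both KO matrices. It had 8.08 CPM (7.47 to 8.73) in KO ocular, 3.68 (3.19 to 4.22) in KO skin and 120 (118 to 123) in WT skin. The level was 32.7-fold lower (28.5 to 37.8) in KO skin than in WT skin. Melanocytic clusters ran from 4.95 to 10.2 in KO ocular and from 0 to 7.59 in KO skin, against 39.5 to 209 in WT skin, with no overlap between the labels. Immune free RNA would give at most 0.139 in KO ocular, 0.159 in KO skin and 1.76 in WT skin, below each measured value. Other classes of the KO matrices had up to 30.9 CPM, in rods of KO ocular.

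Bsg in melanocytic cells had 575 CPM (570 to 581) in KO ocular, 530 (524 to 536) in KO skin and 1255 (1246 to 1265) in WT skin. It was 2.37-fold lower (2.34 to 2.40) in KO skin than in WT skin. The clusters overlapped, from 428 to 677 in KO ocular and from 264 to 833 in KO skin, against 555 to 2043 in WT skin. Retinal pigment epithelial cells of KO ocular, in which basigin carries lactate transporters to both faces of the cell, had 1702 (1629 to 1777) from 75 cells, with at most 110 from free RNA of melanocytic cells.

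Slc16a1 in melanocytic cells was highest in the matrix labelled KO ocular. It had 359 CPM (355 to 363) in KO ocular, 101 (98.1 to 103) in KO skin and 118 (115 to 121) in WT skin. The level in KO ocular was 3.56-fold (3.46 to 3.67) that in KO skin, and their clusters did not overlap, at 289 to 461 in KO ocular and 59.7 to 123 in KO skin. Clusters of WT skin ran from 40.6 to 182 and overlapped those of KO skin. With no comparable WT ocular matrix, and 1 mouse tumour or pool behind each matrix, site and matrix cannot be told apart. Outside melanocytic cells, retinal pigment epithelial cells of KO ocular had 580 (at most 68.5 from melanocytic free RNA) and surface epithelial cells of WT skin had 237 (at most 46.9).

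Slc16a3, the gene of MCT4, was highest in neutrophils and monocytes of these tumours. Neutrophils had 1918 CPM in KO ocular, 505 in KO skin and 1821 in WT skin, monocytes had 509, 500 and 445, and macrophages had 102, 176 and 239. Classes outside the immune system had it too: fibroblasts of KO skin had 181 (at most 63.8 from immune free RNA), endothelial cells of KO skin 114 (at most 15.8) and retinal pigment epithelial cells of KO ocular 86.1 (at most 10.46). Melanocytic cells had 2.36 in KO ocular, 2.61 in KO skin and 6.35 in WT skin. Free RNA of immune cells would give up to 3.93, 3.16 and 13.1, so Slc16a3 was not detectable in melanocytic cells beyond free RNA in any of the 3 matrices. With classes set by marker level alone it was 3.82 in KO skin and 11.01 in WT skin.

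Slc16a6 was the member that stood higher in melanocytic cells under the KO labels. It had 42.2 CPM (40.7 to 43.6) in KO ocular, 29.95 (28.5 to 31.4) in KO skin and 18.6 (17.5 to 19.8) in WT skin. The level in KO skin was 1.61-fold (1.49 to 1.74) that in WT skin, and the clusters overlapped, at 20.01 to 60.03 in KO skin and 13.8 to 25.8 in WT skin. Macrophages had more of it, at 80.4 in KO ocular, 63.9 in KO skin and 72.5 in WT skin. In the cultured clones only clone 2 was above the parental level.

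Hypoxia and glycolysis genes varied between melanocytic clusters, and Bsg was plotted against their sum. In KO skin the cluster with the highest sum, led by Hspa1b, had 16657 CPM of the list and the highest Bsg of that matrix, 833. In WT skin the cluster with the highest sum, led by Car9 (a carbonic anhydrase of hypoxic tumour cells), had 13443 and the highest Bsg of that matrix, 2043. In KO ocular the cluster with the highest sum, also led by Hspa1b, had 7457 and 624 of Bsg, while the highest Bsg, 677, was in a cluster with 4576. Slc16a3, the hypoxia-linked exporter, had 3.23 in the KO skin cluster and 6.70 in the WT skin cluster, where immune free RNA would give melanocytic cells up to 3.16 and 13.1. These clusters were formed on the same cells, without the 6 members among the clustering genes, so their differences are a description.

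**Figure D5:**
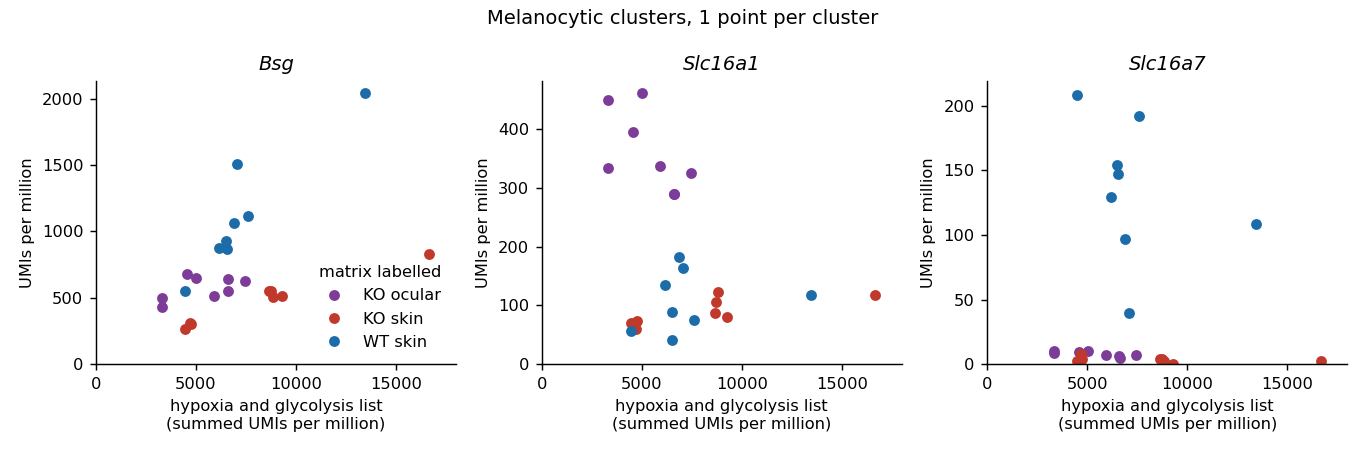
CPM of Bsg, Slc16a1 and Slc16a7 in each melanocytic cluster against the summed CPM of the hypoxia and glycolysis list, 1 point per cluster, 8 clusters in each of KO ocular, KO skin and WT skin. Slc16a7 separates WT skin (39.5 to 209) from both KO matrices (0 to 10.2), and Slc16a1 separates KO ocular (289 to 461) from both skin matrices (40.6 to 182).

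The genes most like Emb in culture were set beside it in melanocytic cells. Dpysl3 had 2.97 CPM in KO ocular, 2.21 in KO skin and 32.3 in WT skin, Ehd3 had 0.865, 0.822 and 24.8, and Tspan12 had 1.61, 0.679 and 17.9. These 3, like Emb, were lower in both KO matrices than in WT skin. Stk36 had 3.63, 14.4 and 6.15, with KO skin highest. Slc9a9 had 0.376, 1.09 and 0.998, from 30 to 61 UMIs, and its intervals in the skin matrices overlapped. Of the pyruvate genes, Ldhb had 340 in KO ocular, 407 in KO skin and 993 in WT skin, and Pdk3 had 16.98, 16.6 and 53.6, both lower under the KO labels as in clones 2 to 4. Pcx had 33.7, 45.5 and 8.57, higher under the KO labels, where it fell in those clones. Ldhd, which rose in those clones, had 16.9 in KO ocular, 35.9 in KO skin and 32.1 in WT skin.

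In the matrix labelled WT ocular no cluster met the rule for melanocytic cells. Its cluster with the most melanocyte markers, 5226 cells, also had Ttr among its leading genes and was left unnamed. It had 2.40 CPM of Emb, 879 of Bsg, 65.5 of Slc16a1, 1.38 of Slc16a3, 8.34 of Slc16a6 and 5.198 of Slc16a7. These come from another assay and are not compared with the other matrices. Free RNA of immune cells would give that cluster up to 1.76 of Emb and 1.05 of Slc16a3.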

How the data were processed

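Bulk expression was deposited by the authors as variance-stabilised values on a log2-like scale for 13202 genes. The libraries were stranded and polyA-selected, per the labels' protocols. Builds named in the submitters' processing notes are mm10 and GRCm38, and the sources used here do not give the bulk aligner or counter. The values inverted to whole reads, 100% of them within 0.01 of a whole number, with 30.8 to 46.8 M reads per library. Genes with a mean at least 1 above the lowest value (6.61) were tested, 10803 in all, with limma 3.58.1 (R 4.3.3, mean-variance trend) over all 10 libraries as 5 lines. Calls were made at a p of 0.05 after Benjamini-Hochberg adjustment. edgeR 4.0.16 on the recovered reads was an alternative. On simulated data 80 of 100 genes changed 2-fold and 99 of 100 changed 4-fold were recovered for clone 1 against the parental line, with 7 false calls among 10803, and 82 and 100 among the clones, with 13 false calls.

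The 2 parental libraries were the pair closest to sampling noise, with a median chi-square per gene of 0.954 against 2.23 to 8.56 for clone pairs; each counts as its own sample.

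The deposited single-cell matrices hold raw UMI counts. Per the file headers, Cell Ranger 7.0.0 wrote the WT ocular matrix and 8.0.0 the other 3. WT ocular had 16-base barcodes, so it came from another assay. The labels mention fixed tissue as well as 3' libraries. Cells with at least 500 UMIs, at least 300 genes and at most 20% mitochondrial UMIs were kept. They were clustered (Leiden resolution 1.0, 15 neighbours, 30 components, 2000 variable genes without the 6 members; Python 3.11.15, scikit-learn 1.9.0, leidenalg 0.10.2). A cluster was named where its marker level was at least 40% and at least 3 markers were detected, unless genes of another class led it; a melanocytic one also needed 4 times the melanocyte marker UMIs of cells of other classes. The parts of this rule beyond the markers, and some leading genes, were set after the clusters were seen. Doublets were not removed; leaving out the 5% highest doublet scores was an alternative. Cells are not replicates and no test was run between matrices.

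All 6 members are named. Up to 4 genes per list are named, those past the threshold in the most clones, then by largest mean difference, together with the 5 genes most correlated with Emb; 1 of the list genes so chosen is not reported here. The members, the lists and the comparisons were chosen with earlier results of these data known. The whole-genome and whole-exome libraries were not analysed here.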

Additional observations from a re-analysis of the deposited data

Results flagged for a closer look

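Emb in clone 1 stood apart from the other 3 clones: its gap to the nearest clone was 0.851 of the whole range of the 4 clone means, above Dixon's 95% critical value for 4 samples. That holds on the stabilised scale, which flattens low counts; on the log2 scale of normalised reads the gap was 0.751 of the range and below that value. For a gene not chosen by its values, chance alone marks about 1 in 20 groups of 4 in this way. The clone values of Emb entered the choice of the set, so that rate does not hold for Emb. The other 4 members in the bulk table were not marked. Clone 1 had Emb at 63.1% of the parental mean, against 2.03% to 4.79% in clones 2 to 4, although Bap1 was at 15.9% of the parental mean in clone 1 and at 24.8%, 25.9% and 9.62% in clones 2 to 4. The order of the clones by Emb was therefore not their order by Bap1.

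All 5 members tested differed among the 4 clones by the limma F test, with Benjamini-Hochberg adjusted p-values of 1.53e-07 for Emb, 0.00304 for Bsg, 0.0114 for Slc16a1, 0.00401 for Slc16a6 and 0.000238 for Slc16a7, where 44.5% of all genes tested did so. As the clone values of Emb entered the choice of the set, its p is not independent of that choice. The lowest clone was clone 3 for Emb, Bsg and Slc16a6, clone 4 for Slc16a7 and clone 1 for Slc16a1.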

How the results depend on the processing

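No difference past the threshold changed sign under any alternative run. Of the member differences from the parental line, which were not tested, Bsg turned to -0.03 in clone 1 without its culture 2 and to -0.07 in clone 2 relative to the chromosome median, and Slc16a1 turned in clones 1 and 4 as given above. Of the F tests among clones, 74 of 75 kept their side of the threshold, and of the pairs of clones 414 of 450 did. On recovered reads with edgeR, which does not flatten low counts, the Emb differences were -0.64, -5.26, -5.64 and -4.41 in clones 1 to 4. They were -3.29 and -2.86 in clones 3 and 4 after quantile normalization. Relative to the chromosome median, an alternative chosen after seeing the data, they were -3.30 and -2.89. Without each culture in turn they ran from -0.63 to -0.53, -3.28 to -3.23, -3.38 to -3.35 and -2.97 to -2.93 in clones 1 to 4.

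Genes called in clone 1 numbered 378, against 214 with a filter at 2 above the lowest value and 616 with a replicate block, and the block changed no other count by over 1.5 times. Without each culture in turn the counts ran from 45 to 643, 1063 to 3508, 2250 to 5011 and 1893 to 4306 in clones 1 to 4, from 2970 to 5419 among the clones, and from 0 to 4, 7 to 18, 12 to 21 and 16 to 27 for list genes. The lowest counts against the parental line came without parental culture 1 or 2, and the lowest among the clones without a culture of clone 3. The cause was not tested, beyond the smaller number of samples.

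In KO skin, Emb in melanocytic cells was 2.57 CPM without the 5% highest doublet scores, and 4.00 with classes set by marker level alone, also chosen after seeing the data. Thinned to 500 UMIs, the share of melanocytic cells with Emb was 0.0973% in KO ocular, 0.127% in KO skin and 3.27% in WT skin. Culture numbers were not taken to pair the lines. The correlation of culture 2 minus culture 1 ran from -0.026 to 0.727 between clones, with only clones 3 and 4 giving a negative value. Between clones and the parental line it ran from -0.128 to -0.074. In the deposited names the culture numbers of clone 3 are shifted against those of the other clones, so this check may misalign clone 3. With the replicate block, Pcx in clone 1 (-0.59, adjusted p = 0.0403) and Slc4a2 in clone 4 (0.37, 0.0395) also passed. Free RNA limits what can be said of Emb and Slc16a3 in melanocytic cells of the KO matrices, and of Slc16a3 in those of WT skin. These levels lie under the free RNA ceilings.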

Other observations

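Clusters with melanocyte markers that were set aside differed in Emb. Those led by Gsta4 (1182 cells) and Tmem74b (681) in KO skin and by Hbb-bs (246) in KO ocular had 2.37, 2.87 and 1.61 CPM. These values lay within the range of the melanocytic clusters of the same matrix. Others held more Emb than the melanocytic clusters. In KO skin a cluster of 237 cells led by Cd36, a scavenger receptor, had 47.7 CPM of Emb and 36.8 of Slc16a3. In KO ocular a cluster of 50 cells led by Tubb1, a platelet tubulin, had 301 of Emb and 423 of Slc16a3. In WT skin a cluster of 395 cells led by Fcrls, a gene of macrophages, had 112 of Emb and 67.1 of Slc16a3. Mixed cells and free RNA were not told apart in these clusters.

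The named glycolytic genes of melanocytic cells were highest in KO skin and lowest in KO ocular. Pgam1 had 288 CPM in KO ocular, 831 in KO skin and 555 in WT skin, Slc2a1 had 244, 403 and 269, and Hk1 had 319, 514 and 475. Ndrg1 was highest in WT skin, with 42.5 in KO ocular, 188 in KO skin and 396 in WT skin. Slc7a11, which rose in clones 3 and 4, had 6.23 in KO ocular and 3.91 in KO skin, against 25.5 in WT skin. Slc3a2 had 811 and 437, against 636 in WT skin.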
